A study of Mus musculus with 40 samples.

Results

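The genes described here are the cyclins, the cyclin-dependent kinases (Cdks), the inhibitors and phosphatases that act on those kinases, and the E2f transcription factors with their partners. A row of the 2 value tables was taken where it mapped to 1 gene symbol that begins with Ccn and a letter, with Cdk, with E2f or with Cdc25, or that is Rb1, Rbl1, Rbl2, Wee1, Skp2, Cks1b, Cks2, Tfdp1 or Tfdp2. Cyclin G1 was left out by that rule. It found 75 probes of 57 genes among 15279 probes of 6970 named genes. Array design 1 held 31 of these probes, of 26 genes, and array design 2 held 44, of 38 genes, with 7 genes on both. The rule takes genes by name, so a few are named only for a cyclin or Cdk that they bind, such as Cdk2ap1 and Cdkn2aip, and Ccnb2-ps is listed as a pseudogene.

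The study used mouse embryos grown in culture. One group was kept at 37 °C without drug as the untreated control. The other was cultured at the same temperature for 5 h with 40 µM 4-hydroperoxycyclophosphamide, a form of the anticancer drug cyclophosphamide that needs no activation in the liver and that alkylates DNA. The sources used here give no strain, no embryonic stage and no number of embryos per sample. Total RNA of both groups was hybridised together on each of 40 2-colour arrays, 20 of each design. Each design carried 5 replicates, and each replicate had a slide with treated RNA in channel 1, a slide with treated RNA in channel 2, and 2 readouts of each slide, named plain and B. Nothing in the labels says that the replicates came from separate cultures, so p-values here measure only how far these samples spread, and that spread may be technical.

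Values are log2 ratios of treated over control embryos, relative to the median probe of the array, with 1 value per replicate, averaged over readouts and both dye orientations. The base of the logarithm and the numerator of the deposited ratio are not stated. The direction is therefore likely rather than settled. It rests on the order of the channels in the labels, and with it cyclin G1 and Mdm2, 2 known p53 targets, were above 0 on every array that measured them (19 of 19 and 19 of 19 for the cyclin G1 probes of design 1, 20 of 20 on design 2, 20 of 20 and 19 of 19 for Mdm2). Arrays of 1 orientation correlated as low as r = -0.54 over all probes on design 2 and -0.31 on design 1. If the direction were turned, every rise below would be a fall and the counts of design 2 would read 3 rose and 13 fell. Ratios hold no expression level, so neither the tissue nor an order of levels among these genes could be checked.

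Cyclins switch on Cdks at set points of the cell cycle. D cyclins with Cdk4 and Cdk6, and then cyclin E with Cdk2, phosphorylate the pocket proteins Rb1, Rbl1 and Rbl2, which frees E2f factors with their Dp partners to transcribe the genes of DNA replication. Cyclin A and the B cyclins with Cdk1 carry the cell through S phase into mitosis, and after DNA damage checkpoint kinases hold the Cdks off through inhibitors such as those of the Cdkn1 family and by blocking the Cdc25 phosphatases.

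On array design 2, 13 of the 44 member probes rose and 3 fell after 5 h of drug at an adjusted p under 0.05 in limma, relative to the array median. The probes that rose were Tfdp1, E2f6, Cdkn1c, Cdk9, Cdk2, Cdkn2c, Ccnd3, Ccni, 3 of 5 Ccnd2 probes, 1 of 2 Cdk4 probes and 1 of 2 Ccna2 probes. Those that fell were Cdk6, Cdk20 and Cks2. The changes were small: across the 44 probes the mean ran from 1.125-fold lower to 1.294-fold higher. The 16 calls are 36.4% of the member probes, beside 27.8% of all 7599 probes of the design (19.8% higher, 8.07% lower), so the share called was near the background. The median of the members was 0.06, and that of all probes 0.02. On array design 1 none of the 31 member probes passed in limma, where 0.651% of all 7680 probes did, and 5 of the 31 had an unadjusted p under 0.05. Their median was 0.04, against 0.00 for all probes of the design.

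**Figure D1:**
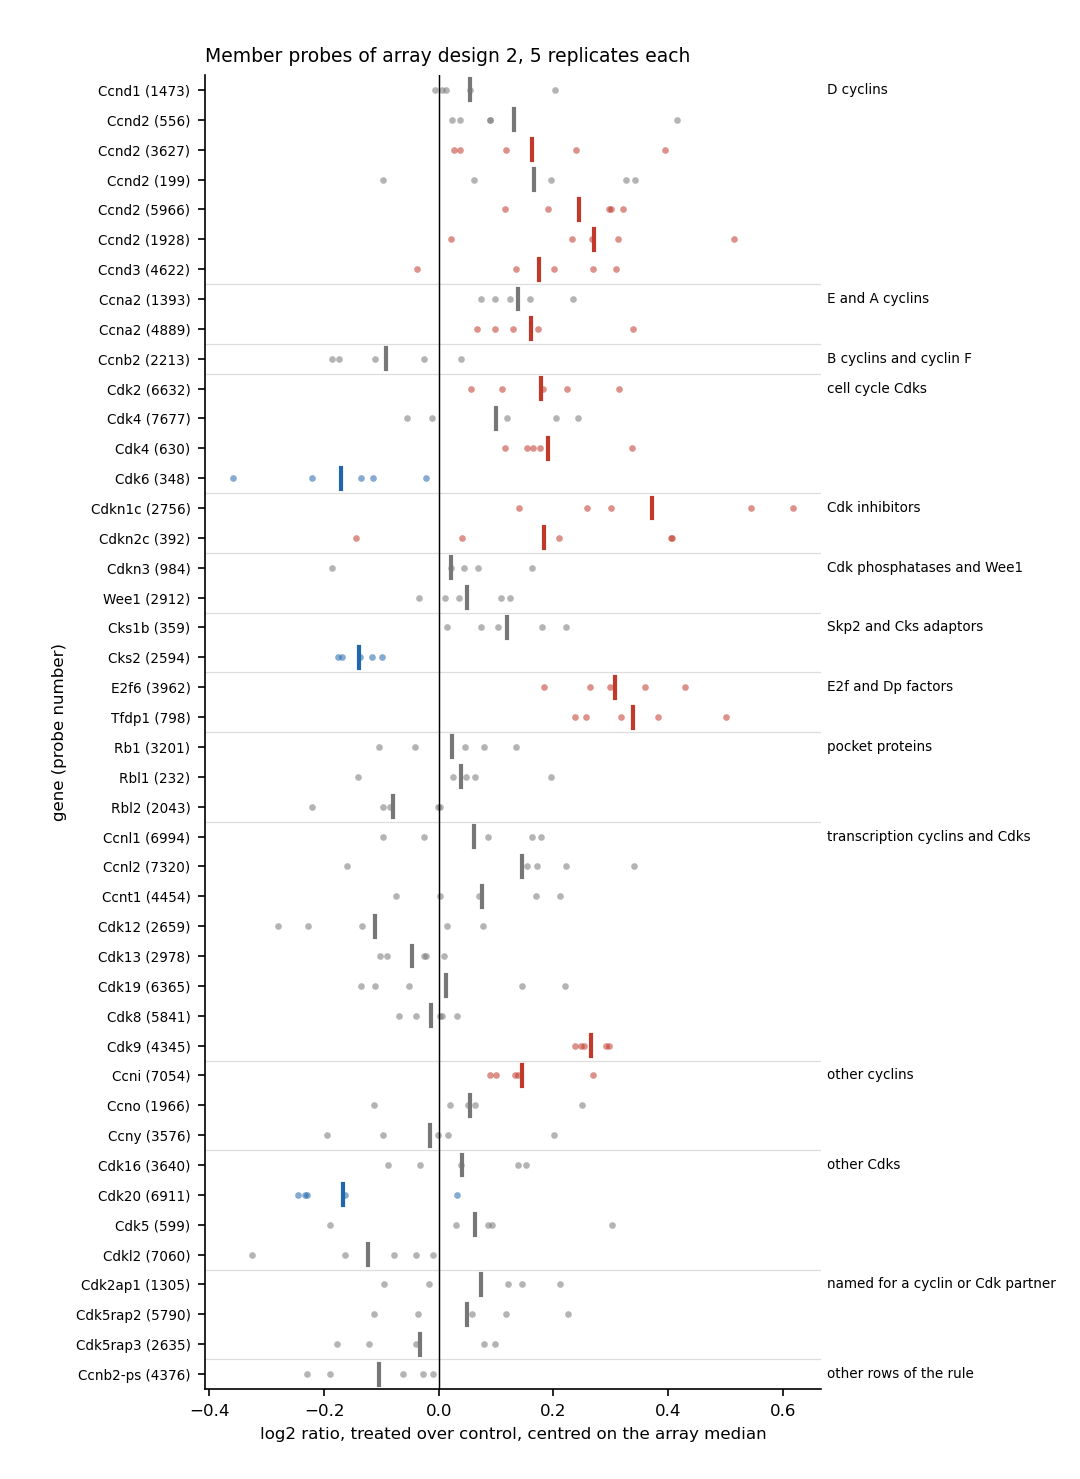
Log2 ratio of treated over control embryos, centred on the array median, for the 44 member probes of array design 2, grouped by role; each dot is 1 of 5 replicates and the thick tick is their mean. Red probes rose and blue probes fell at an adjusted p under 0.05 (13 and 3 probes, relative to the array median; without centring all 13 lie below 0), and grey probes did not pass; Cdkn1c, Tfdp1 and E2f6 lie farthest to the right.

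Of the 57 genes, 44 had a promoter in RefSeq (GRCm38.p6), in 50 windows that run from 250 bases before to 50 after a transcription start. Genes without an entry were Ccna2, Ccnb2-ps, Ccnd1, Ccnd2, Ccnh, Ccny, Cdc25c, Cdk19, Cdk5, Cdkn1c, E2f5, Rb1 and Wee1. The windows were searched on both strands for the E2f words TTTCGCGC, TTTGGCGC, TTTCCCGC and TTTGCCGC and for the CHR words TTTGAA and TTCGAA, an element of many mitotic promoters. No E2f match overlapped a CHR match. An E2f word stood in 7 of the 50 windows (14%), those of Cdc25a, Cdk1, Cdk2, E2f7, Rbl1 and both of Tfdp1, and in 744 of 32851 windows of all genes (2.26%). A CHR word stood in 10 member windows (20%) and in 19.2% of all. Of the 6 genes with an E2f word, Tfdp1 and Cdk2 passed the test on design 2. Cdc25a, Cdk1 and E2f7 were measured on design 1, where no member passed, and Rbl1 did not pass on design 2. The windows shown belong to those 2 genes and to E2f6 and Cks2, whose calls held when a trend along the dye effect was removed (described below). Capitals mark the E2f word, read here on the opposite strand; E2f6 and Cks2 hold none of these letters in this window. Tfdp1 is chr8:13338501-13338800 on the plus strand, with the word 43 bases before the start, Cdk2 is chr10:128705002-128705301 on the minus strand, with the word 140 bases before it, E2f6 is chr12:16810715-16811014 and Cks2 chr13:51644982-51645281, both on the plus strand.
Tfdp1: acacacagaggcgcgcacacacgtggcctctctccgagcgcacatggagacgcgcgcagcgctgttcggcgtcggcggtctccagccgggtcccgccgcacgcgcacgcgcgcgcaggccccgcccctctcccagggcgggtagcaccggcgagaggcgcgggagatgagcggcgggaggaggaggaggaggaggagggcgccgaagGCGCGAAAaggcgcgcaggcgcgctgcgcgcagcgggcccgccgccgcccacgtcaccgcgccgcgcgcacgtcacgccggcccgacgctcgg
Cdk2: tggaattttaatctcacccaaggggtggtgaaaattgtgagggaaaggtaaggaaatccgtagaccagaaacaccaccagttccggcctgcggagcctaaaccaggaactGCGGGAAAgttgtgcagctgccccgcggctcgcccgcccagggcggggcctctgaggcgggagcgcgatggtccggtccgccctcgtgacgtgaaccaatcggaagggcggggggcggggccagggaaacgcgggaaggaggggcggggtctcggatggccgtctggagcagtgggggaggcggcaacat
E2f6: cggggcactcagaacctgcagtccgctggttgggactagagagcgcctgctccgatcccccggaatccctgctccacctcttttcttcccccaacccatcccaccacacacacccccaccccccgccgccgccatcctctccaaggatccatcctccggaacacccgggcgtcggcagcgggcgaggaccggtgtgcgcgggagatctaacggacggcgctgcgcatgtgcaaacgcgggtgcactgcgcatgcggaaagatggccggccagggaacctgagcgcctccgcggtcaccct
Cks2: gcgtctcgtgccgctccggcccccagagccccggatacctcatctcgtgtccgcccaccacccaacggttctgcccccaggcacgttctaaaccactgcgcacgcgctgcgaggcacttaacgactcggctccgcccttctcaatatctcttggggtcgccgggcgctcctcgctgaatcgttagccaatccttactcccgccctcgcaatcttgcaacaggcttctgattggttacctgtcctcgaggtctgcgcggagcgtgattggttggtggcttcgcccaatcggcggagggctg

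Of the 5 E2f and Dp genes measured, Tfdp1 and E2f6 rose, both on design 2. Tfdp1 encodes the Dp subunit that pairs with E2f proteins to bind DNA. Its 5 replicates on design 2 read 0.50, 0.26, 0.24, 0.32 and 0.38, a mean of 0.34 ± 0.11 (SD, n = 5). No replicate lay near 0, and replicate 1 was the highest. This is 1.26-fold higher (95% interval 1.17 to 1.37, adjusted p = 7.85e-05 in limma). On single arrays Tfdp1 ran from -0.53 through a median of 0.27 to 1.15, above 0 on 16 of 20. E2f6, an E2f that represses and does not bind pocket proteins, read 0.43, 0.36, 0.18, 0.26 and 0.30, a mean of 0.31 ± 0.09 (SD, n = 5). It too was above 0 in every replicate, with replicate 3 the lowest, and was 1.24-fold higher (1.14 to 1.34, adjusted p = 0.000194 in limma). Its single arrays ran from -0.15 through a median of 0.29 to 0.90, with 16 of 20 above 0.

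E2f5, E2f7 and E2f8 were measured on design 1 and did not pass. E2f5, which works with the pocket proteins as a repressor, read 0.12, -0.07, 0.01, 0.79 and 0.26, with replicate 4 far above the rest (0.22 ± 0.34, adjusted p = 0.22). E2f7 read -0.23, 0.11, 0.24, 0.25 and -0.20 (0.04 ± 0.24, adjusted p = 0.80), and E2f8 read -0.18, 0.26, 0.17, 0.02 and -0.02 (0.05 ± 0.17, adjusted p = 0.64). Both are repressors without a Dp partner, and the replicates of each lay on both sides of 0.

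None of the pocket proteins passed on design 2. Rb1 read 0.08, -0.10, 0.13, -0.04 and 0.05 (0.02 ± 0.10, adjusted p = 0.78). Rbl1 read 0.02, 0.20, 0.06, 0.05 and -0.14 (0.04 ± 0.12, adjusted p = 0.64). Rbl2 read -0.22, -0.10, 0.00, 0.00 and -0.09 (-0.08 ± 0.09, adjusted p = 0.26). Rb1 and Rbl1 straddled 0, and Rbl2 leaned lower with 2 replicates at 0. At this spread the 95% interval of a member of design 2, not adjusted for the number of probes, had a median half-width of 0.116. Shifts smaller than that were not detectable for most of these genes. Some larger ones also missed the adjusted threshold, such as Ccna2 probe 1393 (0.14, adjusted p = 0.0526 in limma).

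Of the Cdk inhibitors on design 2, both measured genes rose. Cdkn1c encodes an imprinted inhibitor of the Cip/Kip family and gave the highest mean of the design's members. Its replicates read 0.54, 0.62, 0.26, 0.30 and 0.14, a mean of 0.37 ± 0.20 (SD, n = 5), with replicates 1 and 2 well above the others. It was 1.29-fold higher (1.18 to 1.42, adjusted p = 0.000148 in limma), and 17 of its 20 single arrays were above 0, from -0.40 through 0.35 to 1.60. Cdkn2c, an Ink4 inhibitor of Cdk4 and Cdk6, read 0.41, 0.40, 0.21, 0.04 and -0.14 (0.18 ± 0.24, adjusted p = 0.0498). Replicate 5 lay below 0, and the call was lost without replicate 1, 2 or 3. Its 3 replicates from slides numbered from 2000 averaged 0.34 and the 2 from slides numbered from 3000 averaged -0.05; the difference between these slide series did not pass (adjusted p = 0.19). On design 1, Cdkn1b, a Cip/Kip inhibitor of cyclin E and cyclin A kinases, read -0.13, 0.08, 0.04, 0.04 and 0.15 (0.04 ± 0.10, adjusted p = 0.68) and did not pass. Cdkn1a, the p53 target of this family, was not analysed here.

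The D cyclins, which bring Cdk4 and Cdk6 to the pocket proteins, leaned upward on all 7 probes of design 2, and 4 of them rose. Ccnd2 had 5 probes there. The probe with the highest mean, 1928, read 0.51, 0.31, 0.23, 0.27 and 0.02 (0.27 ± 0.18, adjusted p = 0.00232), and probe 5966 read 0.30, 0.30, 0.19, 0.32 and 0.11 (0.24 ± 0.09, adjusted p = 0.00176). Probe 3627 read 0.39, 0.04, 0.03, 0.24 and 0.12 (0.16 ± 0.15, adjusted p = 0.0438). Every replicate of these 3 probes was above 0, and replicate 5 was low on the first of them. Probe 199 read 0.34, 0.33, 0.20, 0.06 and -0.10 (0.17 ± 0.19, adjusted p = 0.0505) and probe 556 read 0.42, 0.04, 0.09, 0.09 and 0.02 (0.13 ± 0.16, adjusted p = 0.10); neither passed. The Ccnd2 probe of design 1 read 0.19, 0.21, -0.06, 0.43 and 0.27 (0.21 ± 0.18, adjusted p = 0.0915) and did not pass either. The 6 probes share a gene and are not independent tests of it.

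Ccnd3 read 0.27, 0.31, 0.20, 0.13 and -0.04 on design 2 (0.18 ± 0.14, adjusted p = 0.0278) and rose. On design 1 it read 0.18, 0.12, 0.17, 0.36 and 0.26, all above 0 (0.22 ± 0.10, adjusted p = 0.0516), and just missed the threshold. Ccnd1 read 0.20, 0.01, 0.01, 0.05 and -0.01 (0.05 ± 0.09, adjusted p = 0.47); apart from replicate 1 it lay close to 0.

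Relative to the array median, and with the dye trend kept, the calls of the G1 kinases went in both directions. Cdk4 probe 630 read 0.34, 0.16, 0.12, 0.18 and 0.15 and rose (0.19 ± 0.09, 1.14-fold, adjusted p = 0.0121). The other Cdk4 probe, 7677, read 0.20, -0.01, -0.06, 0.12 and 0.24 and did not pass (0.10 ± 0.13, adjusted p = 0.19). Cdk6, which shares the D cyclins with Cdk4, read -0.22, -0.11, -0.14, -0.02 and -0.36 and fell (-0.17 ± 0.13, 1.13-fold lower, adjusted p = 0.0296). All 5 of its replicates lay below 0, and 5 of its 20 single arrays were above 0. Cdk2, the partner of cyclins E and A, read 0.31, 0.22, 0.11, 0.06 and 0.18 and rose (0.18 ± 0.10, 1.13-fold, adjusted p = 0.0198), with all replicates above 0. The call of Cdk4 was lost without replicate 1, that of Cdk2 without replicate 1 or 2, and that of Cdk6 without replicate 1 or 5. With the dye trend, described below, removed, none of these probes passed in limma. Cdk4 probe 630 then averaged 0.02 (adjusted p = 0.70) and probe 7677 -0.12 (adjusted p = 0.11). Cdk6 averaged -0.13 (adjusted p = 0.11) and Cdk2 0.14 (adjusted p = 0.0833). Without centring the means of all these probes lay below 0.

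Ccna2, the cyclin of S phase and entry into mitosis, had 1 probe on design 1 and 2 on design 2. Probe 4889 of design 2 read 0.34, 0.10, 0.07, 0.13 and 0.17 and rose (0.16 ± 0.11, adjusted p = 0.0339). Probe 1393 read 0.23, 0.16, 0.07, 0.10 and 0.12 and missed the threshold (0.14 ± 0.06, adjusted p = 0.0526). Both were above 0 in every replicate. The design 1 probe read -0.03, 0.04, -0.11, 0.23 and 0.28 (0.08 ± 0.17, adjusted p = 0.44). Ccne1, the cyclin that opens S phase with Cdk2, read 0.07, 0.04, 0.22, 0.35 and 0.03 on design 1 (0.14 ± 0.14, adjusted p = 0.17); no replicate was below 0, but it did not pass.

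Among the mitotic members no probe passed on either design. Ccnb2, a B cyclin, read 0.04, -0.17, -0.11, -0.03 and -0.19 on design 2 (-0.09 ± 0.10, adjusted p = 0.20). Cdk1, the mitotic kinase, read -0.08, -0.05, -0.11, 0.76 and 0.24 on design 1 (0.15 ± 0.37, adjusted p = 0.42): 3 replicates were below 0 and replicate 4 was far above. Wee1, the kinase that holds Cdk1 inactive, read 0.12, 0.11, 0.01, 0.04 and -0.03 on design 2 (0.05 ± 0.07, adjusted p = 0.51). Ccnf encodes cyclin F, the substrate-binding subunit of a ubiquitin ligase, and its probe 6546 on design 1 read 0.31, 0.17, 0.49, 0.38 and 0.15. Every replicate was above 0 (0.30 ± 0.14, 1.23-fold), yet the adjusted p was 0.0516. The sign of this probe turned with the channel: it averaged 0.90 with treated RNA in channel 1 and -0.30 in channel 2, with a dye effect past the threshold (adjusted p = 0.032). The other Ccnf probe, 6468, averaged 0.12 ± 0.27 with an adjusted p of 0.40.

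The Cdc25 phosphatases remove the inhibitory phosphates that Wee1 sets. Cdc25a had 4 probes on design 1, and they disagreed. Probe 1465 read -0.12, -0.10, -0.20, -0.23 and -0.17, below 0 throughout (-0.16 ± 0.06, adjusted p = 0.0634). Probe 6266 read 0.28, 0.05, 0.27, 2.19 and 0.33, so that its mean of 0.63 ± 0.88 rested on replicate 4 (adjusted p = 0.16). Probe 393 read -0.19, 0.17, 0.20, -0.07 and -0.09 (0.00 ± 0.17, adjusted p = 0.97), and probe 3681 read 0.10, 0.05, 0.23, -0.11 and 0.04 (0.06 ± 0.12, adjusted p = 0.50). No direction can be given for the gene from these probes. Cdc25c read -0.04, -0.05, 0.07, -0.13 and -0.09 (-0.05 ± 0.08, adjusted p = 0.55).

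The Cks proteins are small subunits that dock Cdks onto their phosphorylated targets. Cks2 read -0.14, -0.17, -0.12, -0.10 and -0.18 on design 2, a mean of -0.14 ± 0.03 (SD, n = 5). The replicates lay within a narrow band below 0, and the gene fell 1.10-fold (ratio 0.843 to 0.977, adjusted p = 0.0467 in limma). The call was lost when any 1 of the 5 replicates was left out, with adjusted p-values from 0.0684 to 0.12. The narrow band holds only for the means of both orientations. Its single arrays ran from -0.79 through a median of -0.20 to 0.40, with 9 of 20 above 0. Cks1b, its paralogue, read 0.22, 0.01, 0.18, 0.07 and 0.10, above 0 in each replicate, and did not pass (0.12 ± 0.08, adjusted p = 0.0972).

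Of the cyclins and Cdks that act on transcription, 1 of 8 probes rose on design 2. Cdk9, the kinase that with cyclin T releases paused RNA polymerase II, read 0.29, 0.24, 0.25, 0.25 and 0.30, a mean of 0.27 ± 0.03 (SD, n = 5). Its replicates differed less than those of any other member of this design (1.20-fold, 1.12 to 1.29, adjusted p = 0.0005 in limma). That holds only for the means of both orientations. Cdk9 averaged 0.06 with treated RNA in channel 1 and 0.47 in channel 2. Its single arrays ran from -0.48 through a median of 0.25 to 1.07, with 12 of 20 above 0. The other 7 probes of the role, among them a cyclin T, had means from -0.11 to 0.15 and none passed. On design 1 the 5 probes of this role ran from -0.18 to 0.11 without a call. Of the remaining kinases Cdk20 fell on design 2, with replicates at -0.23, -0.16, -0.25, -0.23 and 0.03 (-0.17 ± 0.12, adjusted p = 0.0298); replicate 5 stood on the other side of 0. Ccni, an atypical cyclin, read 0.13, 0.09, 0.10, 0.14 and 0.27 on design 2 and rose (0.15 ± 0.07, adjusted p = 0.0439). Its probe on design 1 averaged -0.05 ± 0.13 and did not pass (adjusted p = 0.63).

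The remaining members gave no call. The 3 probes of design 2 named for a cyclin or Cdk partner ran from -0.03 to 0.07 and the 7 of design 1 from -0.10 to 0.12. The phosphatase gene Cdkn3 averaged 0.02 and the Ccnb2 pseudogene -0.10. Of the other Cdks, Cdk18 on design 1 lay below 0 in every replicate (-0.16 ± 0.04) and missed the threshold (adjusted p = 0.0673); it is named after its values were seen. Genes measured on both designs could be set side by side. Cdk16 averaged 0.01 on design 1 and 0.04 on design 2, Cdk5rap3 -0.10 and -0.03, and Ccnl1, a splicing-linked cyclin, -0.18 and 0.06. Ccnl1 and Ccni were the 2 of the 7 such genes whose means had opposite signs on the designs, and Ccna2, Ccnd2 and Ccnd3 were above 0 on all their probes. Over all members, 6 of 31 probes of design 1 (19.4%) and 18 of 44 of design 2 (40.9%) had the same sign in all 5 replicates, where 31.1% and 33.8% of all probes did.

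**Figure D2:**
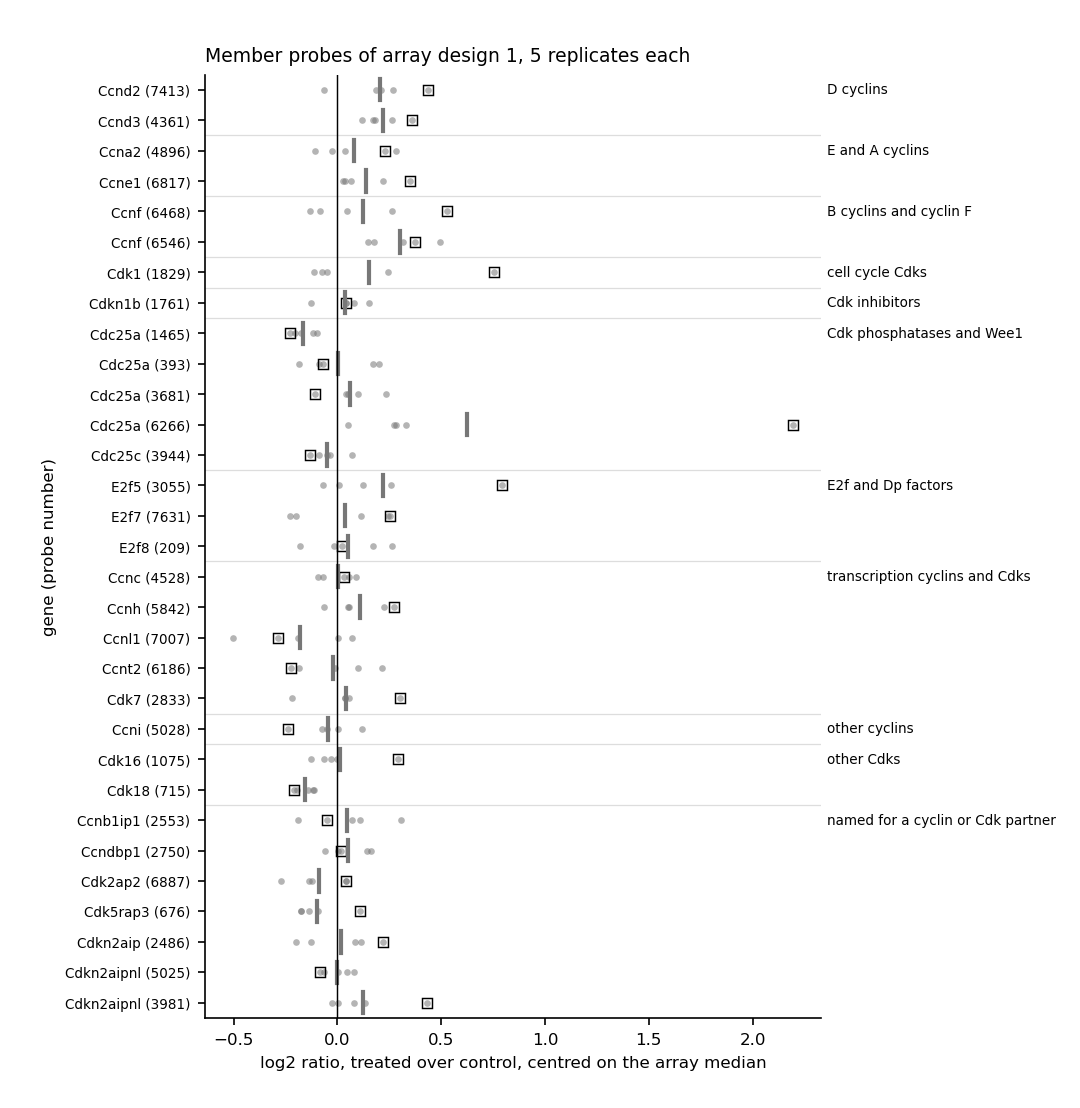
Log2 ratio of treated over control embryos, centred on the array median, for the 31 member probes of array design 1, grouped by role; each dot is 1 of 5 replicates, the thick tick is their mean and the open square marks replicate 4. No probe passed; Cdc25a probe 6266 (2.19), E2f5 (0.79) and Cdk1 (0.76) in replicate 4 stand far to the right of their other replicates.

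Replicate 4 of design 1 held a readout, B with treated RNA in channel 2, that lacked 786 of 7680 values (10.2%) and had a standard deviation of 1.13 over the probes. Ccna2, Ccnd2 and Ccnd3 were among its missing values, so their replicate 4 came from fewer readouts. Without that readout, 15.9% of all probes of the design passed in limma (10.2% higher) and 3 of the 31 members rose. These were Ccnf probe 6546 (0.31 ± 0.15, adjusted p = 0.00928), Cdc25a probe 6266 (0.31 ± 0.20, adjusted p = 0.0155) and Ccnd3 (0.22 ± 0.10, adjusted p = 0.0266). Ccnd3 had no value in that readout, so its own replicates were the same in both fits and only its p-value moved. With the dye trend, described below, removed as well, none of the 3 still passed in limma. Ccnf probe 6546 averaged 0.17 (adjusted p = 0.12), Cdc25a probe 6266 0.19 (adjusted p = 0.065) and Ccnd3 0.08 (adjusted p = 0.27). With only the readout left out and the trend kept, replicate 4 of Cdc25a probe 6266 read 0.60 and that of Cdk1 0.13. The mean of Cdk1 moved from 0.15 to 0.03. In that setting the members' share of 9.68% was below that of all probes.

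The readings depended on which channel held the treated RNA. Of the 16 members called on design 2, 12 (75%) had the same sign in both orientations, beside 56.1% of all 2114 called probes. Tfdp1 averaged 0.42 with treated RNA in channel 1 and 0.26 in channel 2, E2f6 0.21 and 0.40, and Cdk2 0.22 and 0.13. These 3 genes were on the same side of 0 either way. In others of the 12 the sign was the same but 1 orientation lay near 0. Cdk6 averaged -0.34 with treated RNA in channel 1 and -0.005 in channel 2. Ccnd2 probe 1928 averaged 0.53 and 0.01, Ccnd2 probe 3627 0.29 and 0.03, and Cdk9 0.06 and 0.47. Ccnd3 averaged 0.63 and -0.28, Ccni -0.17 and 0.46, Ccnd2 probe 5966 0.56 and -0.07, and Cks2 -0.32 and 0.04. For these 4 probes the sign turned with the channel, and the mean of both orientations is what the call rests on. Over all members, called or not, the orientations had opposite signs for 20 of 31 probes of design 1 and 24 of 44 of design 2, among them Ccnd2 probe 199 (0.54 and -0.21), Cdkn1b (0.40 and -0.32), E2f8 (0.46 and -0.35) and Cdc25a probe 1465 (-0.50 and 0.17). With treated RNA in channel 2 alone no member passed on this design in limma, where 1.54% of all probes did, and with channel 1 alone 6 rose and none fell, where 15.7% of all probes passed (9.33% higher). On design 1, 6 of the 31 members (19.4%) had a dye effect past the threshold, as had 16.2% of all probes. On design 2 none passed, among the members or among all probes, which does not mean that dye effects were absent there. That of Ccnd3, channel 1 over channel 2, averaged 0.45 ± 0.45 (SD, n = 5, adjusted p = 0.18 in limma), so it varied widely between replicates.

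**Figure D3:**
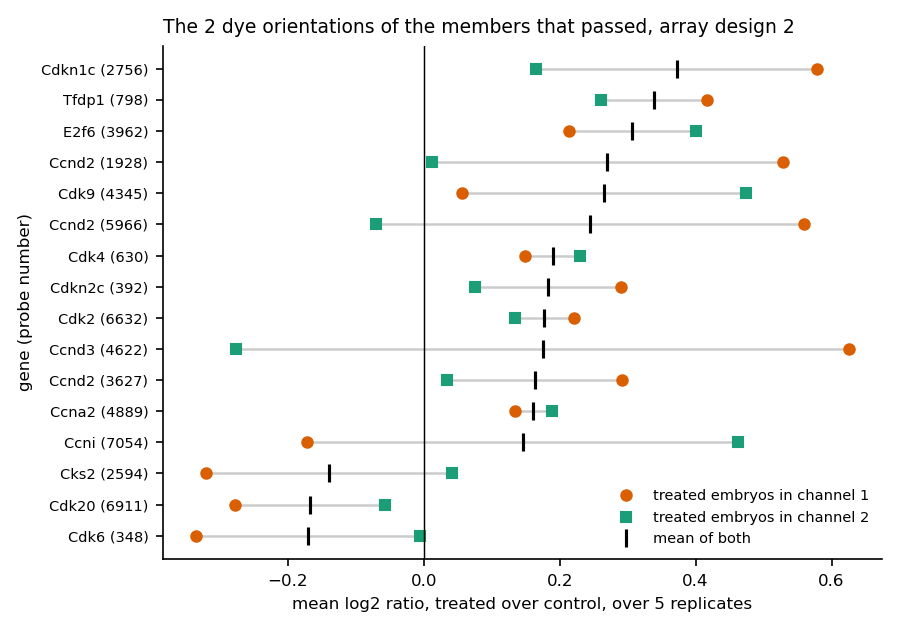
Mean log2 ratio of treated over control embryos over 5 replicates, relative to the array median, for the 16 member probes that passed on array design 2; circles are slides with treated embryos in channel 1, squares those with treated embryos in channel 2, and ticks the mean of both. For 12 of the 16 probes both orientations lie on one side of 0, in some, such as Cdk6 and Ccnd2 probe 1928, with 1 of them near 0. Ccnd3, Ccni, Cks2 and Ccnd2 probe 5966 lie on opposite sides.

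Over all probes the treatment ratio of a replicate followed the size and pattern of each probe's dye effect. A smooth trend along 3 principal components of the dye effect accounted for between 33.3% and 63.4% of the variance of single replicates on design 2 and between 35.7% and 82.0% on design 1. The 82.0% belonged to replicate 4, which held the incomplete readout. Without that readout replicate 4 stood at 61.9% and the range on design 1 was 37.9% to 70.9%. With that trend removed, 5.03% of all probes of design 2 passed (3.15% higher, 1.88% lower) and 3 of the 44 members (6.82%): E2f6 rose, and Cks2 and Cdk2ap1 fell. E2f6 then read 0.20, 0.34, 0.11, 0.14 and 0.27 (0.21 ± 0.09, adjusted p = 0.0203). Cks2 read -0.36, -0.25, -0.21, -0.20 and -0.16 (-0.24 ± 0.08, adjusted p = 0.0109). Both kept their sign in all 5 replicates. Of the 16 members called before, 2 (12.5%) kept the call, as did 12.2% of all called probes. Cdk2ap1, a Cdk2-binding protein, went from 0.07 (adjusted p = 0.34) to -0.19 ± 0.08 (adjusted p = 0.0235), and is named here because it passed under this reading.

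All 13 rises were smaller with the trend removed. Cdkn1c averaged 0.19 (adjusted p = 0.0962), Tfdp1 0.15 (adjusted p = 0.0744) and Cdk2 0.14 (adjusted p = 0.0833), each missing the threshold by little. Cdk9 averaged 0.05 (adjusted p = 0.41), in spite of the close agreement of its replicates. Ccnd2 probe 5966 averaged -0.02 and Ccni -0.09, on the other side of 0 and without a call. In all, 12 of 44 member means of design 2 and 9 of 31 of design 1 changed sign, most of them without a call in either reading. Cdk4 probe 7677 went from 0.10 to -0.12, Cks1b from 0.12 to -0.09, and Cdk1 of design 1 from 0.15 to -0.17, none of them called. The D cyclins of design 2 had a median of 0.02 then, against 0.17 before. On design 1 no member passed with the trend removed, where 0.781% of all probes did and 4 members had an unadjusted p under 0.05; with the incomplete readout also left out 1 member fell, Ccna2 at -0.18 (adjusted p = 0.0423, from -0.17 and 0.0862 with that readout kept), where 1.54% of all probes passed (0.56% lower). The mean of Ccna2 was above 0 on both designs before, so the direction of the design 1 probe depends on this step. No fall was called on design 2 with the trend removed. There probe 1393 averaged -0.04 (adjusted p = 0.60 in limma), and probe 4889 kept its sign at 0.05 (adjusted p = 0.42).

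**Figure D4:**
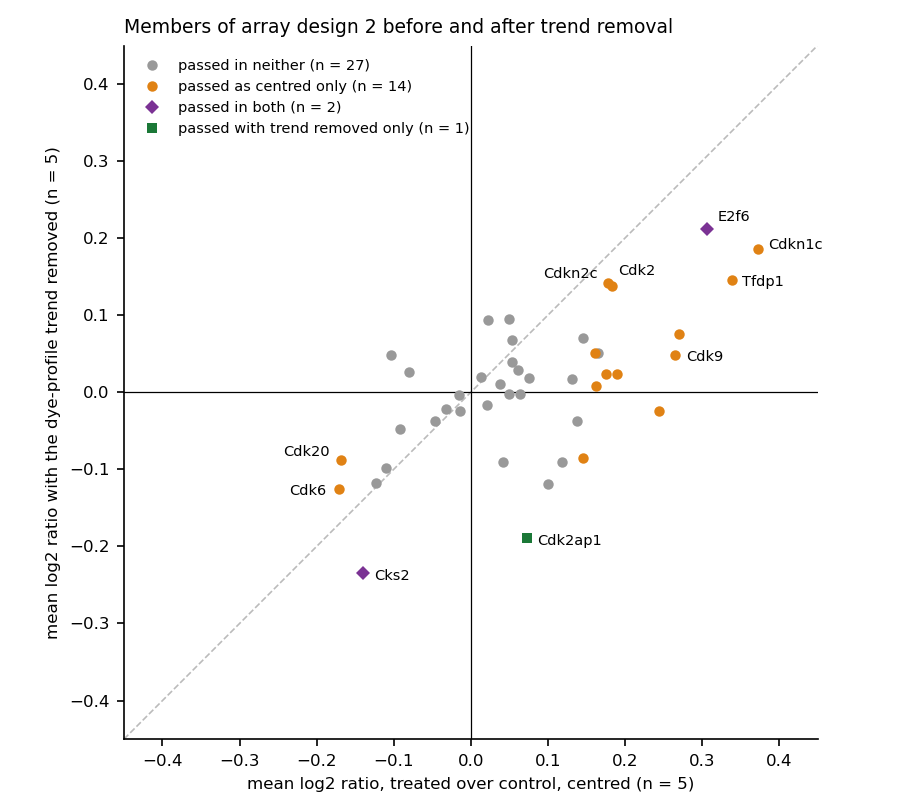
Mean log2 ratio of treated over control embryos (n = 5) for the 44 member probes of array design 2, centred on the array median (x axis) and with the trend along the dye effect removed as well (y axis); the dashed line marks equal values. E2f6 and Cks2 (diamonds) passed in both readings, 14 probes (orange) only before the removal and Cdk2ap1 (square) only after it (Cdk9, for one, goes from 0.27 to 0.05).

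The slides were numbered from 2000 or from 3000, which is the only batch the labels show. No member differed between these series past the threshold on either design, and neither did any other probe. Within the 3 replicates of series 2000 of design 2, 12 members passed, where 28.6% of all probes did, and within the 2 of series 3000, 3 passed, where 10.7% did. Tfdp1, E2f6 and Cdk9 were called within each series. Tfdp1 averaged 0.33 and 0.35 in the series, E2f6 0.32 and 0.28, and Cdk9 0.26 and 0.27. Cdkn1c averaged 0.47 and 0.22. Leaving out any 1 replicate left the calls of Tfdp1, E2f6, Cdkn1c, Cdk9 and Ccnd2 probes 1928 and 5966 in place. The calls of Ccnd3 and Cdk20 were lost without replicate 1, 2, 3 or 4, that of Ccna2 without replicate 1, 2 or 4, that of Ccnd2 probe 3627 without replicate 1 or 4, and that of Ccni whichever replicate was left out. The count of calls was 6 without replicate 1, 10 without replicate 2 or 4, 11 without replicate 3 and 14 without replicate 5, and the share of all probes that passed moved with it (13.3%, 19.4%, 20.3%, 21.6% and 34.7% without replicate 1, 2, 3, 4 and 5 in turn).

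Genes around these kinases were counted in the same fits, in which 19.8% of all probes of design 2 rose and 8.07% fell, and 0.651% passed on design 1. Among targets of E2f factors, 10 of 16 probes rose and 1 fell on design 2, with a median of 0.24. The 3 with the smallest p were the mismatch repair gene Msh6 (0.51, adjusted p = 6.16e-07), the primase gene Prim1 (0.36, adjusted p = 3.76e-05) and the replicative helicase gene Mcm6 (0.34, adjusted p = 8.34e-05). With the dye trend removed, where 3.15% of all probes rose, 2 of the 16 rose and the median was 0.08. On design 1, 4 of 25 rose, with a median of 0.30, led by the ribonucleotide reductase gene Rrm2 (0.73 and 0.75 on 2 probes, both adjusted p = 0.0196) and the polymerase clamp gene Pcna (0.67, adjusted p = 0.0387); 4 rose with the trend removed, with a median of 0.09. Without the incomplete readout, where 10.2% of all probes rose, 11 of the 25 rose and the median was 0.17.

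Of the ubiquitin ligase genes that act on cyclins and Cdk inhibitors, 3 of 24 probes rose and 1 fell on design 2. Cdc34, the ubiquitin-conjugating enzyme of the SCF ligases, was at 0.58 (adjusted p = 2.36e-07), Fbxw7, whose protein targets cyclin E, at 0.26 (adjusted p = 0.00105) and Dtl at 0.17 (adjusted p = 0.0311). Cdc34 was also the 1 probe of 17 that rose on design 1 (0.39 ± 0.03, adjusted p = 0.0196), and it rose on both designs with the trend removed (0.32 and 0.42). Under that reading 3.15% of all probes of design 2 rose and 1.88% fell. Of the 24 probes of the list 1 rose and 3 fell there, too few to give the list a direction. Among those that fell were the anaphase-promoting complex genes Cdc27 (-0.21, adjusted p = 0.0259) and Fzr1 (-0.23, adjusted p = 0.0308). On design 1, 6 of 17 rose without the incomplete readout. Of checkpoint genes, 2 of 6 probes rose on design 2: the p53-induced phosphatase gene Ppm1d (0.34, adjusted p = 5.31e-05) and the kinase gene Chek1 (0.24, adjusted p = 0.011). With the trend removed only Ppm1d rose (0.38, adjusted p = 0.000603). None of 12 passed on design 1, and there Chek2 was at -0.16 (adjusted p = 0.0607), Chek1 at 0.26 (adjusted p = 0.0725) and Aurka at -0.14 (adjusted p = 0.17). There the mitotic kinase gene Aurka fell with the trend removed (-0.29, adjusted p = 0.0361), and Chek1 rose without the incomplete readout (0.19, adjusted p = 0.0404). Of the DREAM complex and FoxM1 genes, which repress or drive cell cycle promoters, 3 of 6 probes rose on design 2, Rbbp4 on 2 probes (0.29 and 0.26) and Mybl2 (0.28), and none did with the trend removed; genes of that list were not analysed on design 1. In the mitogen signalling list 1 of 8 probes rose on design 2, Braf (0.23, adjusted p = 0.0198), and none did with the trend removed. None of 13 passed on design 1, where Ets2 rose without the incomplete readout (0.23, adjusted p = 0.0237).

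Markers of other cell types were read beside these. On design 2, 7 of 9 erythroid probes rose, with a median of 0.58 that ran from 0.34 to 0.80 over the replicates, and 4 rose with the trend removed. These probes belong to 5 genes, several of them to Hbb-y, and are not independent markers. None of 3 visceral endoderm and yolk sac probes passed on design 2 and none of 6 on design 1. None of 7 placenta and decidua probes passed on design 1, and the 1 erythroid probe there did not pass. Without the incomplete readout of design 1, 15.9% of all probes passed in limma. Then 1 of the 6 endoderm probes rose, Dab2 (0.20, adjusted p = 0.0319). The median of that list was -0.07, and Apob was at -0.20 (adjusted p = 0.0507). Of the 7 placenta and decidua probes 1 fell, Prl8a2 (-0.23, adjusted p = 0.0298), while Peg10 was at 0.24 (adjusted p = 0.0551). Neither list moved in 1 direction. In whole embryos a change in the number of cells of a type and a change in RNA per cell cannot be told apart. The part of the erythroid rise in the values of the members was not tested.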

How the data were processed

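The authors deposited 1 value per spot and array, which were read as log2 ratios of channel 1 over channel 2; the sources used here give no background correction, normalization or scanner. Probes were named through the platform annotation deposited for each array design, using only probes with 1 gene symbol (4749 and 4935 spots). The arrays' number limits the precision, and no intensities were used, so dim probes could not be filtered.

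Each array was centred on its median, spots of 1 probe were averaged, ratios were turned to treated over control, and readouts and then both orientations were averaged to 1 value for each of 5 replicates. All 7680 and 7599 probes were fitted with limma 3.58.1 in R 4.3.3 (lmFit, eBayes), two-sided against 0, with Benjamini-Hochberg adjustment over each design and a threshold of 0.05; a value in at least 3 replicates was required. The fit was tested on simulated data. Of probes shifted by 0.3, 46% were recovered on design 1 and 77% on design 2. Of those shifted by 0.6, 93% and 98% were recovered, and there were 8 and 12 false calls. In it 100 probes of each design were shifted by each size, while 27.8% of the probes of design 2 passed in the real data. These counts describe the simulated data only. They do not vouch for the calls of the members, of which 2 of 16 held with the dye trend removed. Shifts of the size of most members could therefore be missed, above all on design 1. The dye trend was fitted with mgcv 1.9.3 on 3 principal components.

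The members, lists and tests were chosen with earlier results of these data known. Given replicate by replicate are the members past the threshold on either design, the 3 with the smallest p on a design where fewer than 3 passed, and core cell cycle genes. Alternatives are in the closing section. Replicate numbers mark slides of the same comparison, with treated and control RNA on each array, so the pairing is within the array.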

Additional observations from a re-analysis of the deposited data

Results flagged for a closer look

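Each of the 75 member probes was examined for a single replicate that stands apart from the other 4, by its gap to the nearest replicate over the whole range, with a critical value of 0.71; chance alone marks about 1 in 20 such groups. In 6 probes a replicate stood apart. On design 1 these were Cdc25a probe 6266 in replicate 4 (2.19) and Cdk5rap3 in replicate 4 (0.11), both from the replicate with the incomplete readout. On design 2 they were Ccnd1 in replicate 1 (0.20), Ccnd2 probe 556 in replicate 1 (0.42), Cdk4 probe 630 in replicate 1 (0.34) and Ccni in replicate 5 (0.27), each above the other replicates.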

How the results depend on the processing

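Centring and the orientation both moved the values. Before centring, the median of a replicate over all probes ran from -0.38 to -0.10 on design 1 and from -0.66 to -0.11 on design 2. Without centring 13 members fell on design 1 (60.1% of all probes passed) and 38 on design 2 (87.6%), none rose, and the means then were -0.091 for Tfdp1, -0.12 for E2f6, -0.057 for Cdkn1c, -0.25 for Cdkn2c, -0.16 for Cdk9, -0.25 for Cdk2, -0.24 and -0.33 for Cdk4, -0.28 for Ccni, -0.25 for Ccnd3, -0.27 and -0.29 for Ccna2, -0.38 for Ccnd1 and Wee1, -0.41 for Rb1, -0.39 for Rbl1, -0.31 for Cks1b, -0.16, -0.18, -0.26, -0.27 and -0.30 for the Ccnd2 probes of design 2, and -0.23 and -0.18 for Cdc25a probes 393 and 3681. Every direction given is therefore relative to the array median.

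On design 1, 0 members passed with all readouts. The count was 2 with plain readouts (6.52% of all probes), 7 with treated RNA in channel 1 (30.3%), 2 in channel 2 (14.4%), 3 without the incomplete readout, 1 with the trend removed as well, 1 with the probes of a gene averaged (12.6%), and 0 without any 1 replicate. On design 2 the count of 16 became 7 with arrays scaled to one spread (17.5%), 9 with plain (14.2%) and 10 with B readouts (23.4%), 6 with treated RNA in channel 1, 0 in channel 2, 3 within slide series 3000 and 3 with the trend removed, and it ran from 6 to 14 without 1 replicate. It was 18 with the slide series as a term (32.3%), 17 with a robust prior (29.2%), 13 with the probes of a gene averaged (25.8%) and 12 within series 2000 (28.6%). With the replicate as a block, single arrays gave 2 members on design 1 (7.41% of all probes) and 13 on design 2 (32.5%), and slide means 0 (3.79%) and 13 (27.5%).

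The orientations disagreed in sign for 20 member probes of design 1 and 24 of design 2. Among the members given replicate by replicate, where a value was called with both or in the single orientation, the values turned against the mean of both were Cdc25a probe 393 (-0.61), Cks2 (0.042), Ccnd3 (-0.28) and Ccnd2 probe 5966 (-0.070) on channel 2 and Ccni (-0.17) on channel 1. Series 3000 turned Cdkn2c (-0.052). Trend removal changed the sign of 9 and 12 member probes; where a value was called before or after, these were Cdk2ap1 (-0.19), Ccnd2 probe 5966 (-0.024), Ccni (-0.086) and, without the incomplete readout, Ccna2 of design 1 (-0.18). The cause of these shifts was not tested. With 5 replicates, the half-width of a member's interval had a median of 0.157 on design 1 and 0.116 on design 2.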
